A study of Mus musculus with 6 samples.

Results

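Sapcd2, Matn1, Sox3, Gsx1 and Pnlip are 5 genes whose transcripts were scarce in whole mouse brain RNA and many-fold more frequent among the RNA pulled down with tagged ribosomes. They are 5 of the 24411 genes with a value in all 6 libraries. They were chosen by their measured values, namely under 1 CPM (a count scaled to the total of its library) in both inputs and far higher in all pull-down libraries. What follows on pull-down against input is therefore a description without a test. The genotype comparison was not used to pick them and is tested.

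In the RiboTag method, recombination by Cre adds a haemagglutinin tag to Rpl22, a protein of the large ribosomal subunit, and an antibody to the tag then retrieves those cells' ribosomes with the mRNA they carry. NG2, the product of Cspg4, marks oligodendrocyte precursors, the dividing cells that give rise to myelinating oligodendrocytes, and also pericytes of small vessels. A transcript made by a sparse cell population is diluted in whole brain RNA, and retrieval of that population's ribosomes raises its share. Fewer cells of a type and less RNA per cell cannot be told apart in such bulk samples.

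The 5 genes differ in what they encode. Sox3 (an X-linked SoxB1 factor with a high-mobility-group domain) and Gsx1 (a homeodomain factor of the embryonic ventral forebrain) are transcription factors of neural progenitors. Sapcd2 encodes a cytoplasmic protein that takes part in orienting the mitotic spindle. Matn1 encodes matrilin-1, an extracellular matrix protein best known from cartilage. Pnlip encodes pancreatic triacylglycerol lipase, a digestive enzyme secreted by pancreatic acinar cells.

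Control mice were NG2CreERTM;Rpl22HA/+, and AnkG icKO mice were NG2CreERTM;Ank3F/F;Rpl22HA/+. Ank3 encodes ankyrin-G, which anchors membrane proteins to the spectrin cytoskeleton, and its floxed alleles can be deleted by Cre. All groups, controls included, carried the driver and the tagged allele. All received tamoxifen at 100 mg/kg per day for 5 days at 8 weeks of age, and brains were collected 1 month later, with 3 mice pooled for each library. There were 2 control and 2 icKO immunoprecipitates (IP), and 1 input, homogenate RNA taken before the pull-down, of each genotype. The labels call all libraries oligodendrocytes, although the inputs were whole brain homogenate.

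Library totals ran from 18968806 to 23930812 counts, at which 3 counts correspond to at most 0.158 CPM. The 4 pull-down (IP) libraries held the markers of the targeted lineage. Summed over 25 precursor genes other than Sapcd2, the level was 15726 and 15880 CPM in control IPs and 12853 and 12963 CPM in icKO IPs, against 1917 and 2110 CPM in the inputs of control and icKO mice. Ank3 itself was at 1402 and 1374 CPM in the control pull-downs and 1109 and 1113 CPM in those of icKO. Reads from exons outside the deletion enter this count, and the labels do not name the deleted ones, so the check of the genotype is weak.

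The 250 bases before the RefSeq start site are shown for the 4 genes that matched in RefSeq's promoter table (GRCm38.p6, the same assembly as mm10). They are read 5′ to 3′ on the gene's strand. The joint rise of the 5 transcripts in the pull-down was the rule of their choice, so the sequences are a description only. Capitals mark matches, on either strand, to AACAAAG and AACAATG (bound by Sox factors), CAGCTG and CATCTG (E-boxes of basic helix-loop-helix factors), TAATTA (a homeodomain core) and TATAAA (the TATA box).
Sapcd2, chr2:25371785-25372034, plus strand: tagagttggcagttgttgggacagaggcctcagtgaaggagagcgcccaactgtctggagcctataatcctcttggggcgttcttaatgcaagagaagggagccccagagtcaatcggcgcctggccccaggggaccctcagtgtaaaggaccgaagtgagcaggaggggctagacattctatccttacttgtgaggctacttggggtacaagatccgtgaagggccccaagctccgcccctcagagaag
Matn1, chr4:130944135-130944384, plus strand: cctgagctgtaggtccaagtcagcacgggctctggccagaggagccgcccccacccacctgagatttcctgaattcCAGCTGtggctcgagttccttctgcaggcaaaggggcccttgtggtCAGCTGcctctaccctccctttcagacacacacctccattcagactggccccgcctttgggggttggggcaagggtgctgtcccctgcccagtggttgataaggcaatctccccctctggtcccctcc
Gsx1, chr5:147188446-147188695, plus strand: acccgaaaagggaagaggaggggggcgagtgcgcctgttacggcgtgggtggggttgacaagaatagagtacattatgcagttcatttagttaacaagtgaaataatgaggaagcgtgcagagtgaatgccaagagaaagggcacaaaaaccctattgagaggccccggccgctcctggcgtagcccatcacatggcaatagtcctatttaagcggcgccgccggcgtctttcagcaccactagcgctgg
Pnlip, chr19:58670115-58670364, plus strand: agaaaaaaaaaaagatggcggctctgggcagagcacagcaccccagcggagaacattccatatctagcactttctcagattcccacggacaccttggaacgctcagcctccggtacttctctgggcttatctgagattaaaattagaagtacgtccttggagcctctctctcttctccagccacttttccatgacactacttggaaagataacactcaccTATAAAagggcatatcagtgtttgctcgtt

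Only a few of these motifs occurred. Matn1 held CAGCTG at positions -174 and -128, counted to the first base of the match with -1 as the base before the start site, and this motif occurs in 13.0% of 32851 promoter windows of the same length. Pnlip held TATAAA at position -30, and 12.4% of windows hold that motif. Neither the Sapcd2 nor the Gsx1 window held any of the 6 motifs. The others occur in 5.03% (AACAAAG), 3.29% (AACAATG), 14.4% (CATCTG) and 4.84% (TAATTA) of windows. Base composition varied as well: the share of G and C was 62.0% for Matn1, 56.8% for Sapcd2, 54.0% for Gsx1 and 46.8% for Pnlip, around a median of 52.4% over all windows. Gsx1 had 15 CpG dinucleotides, Sapcd2 and Pnlip 7 each and Matn1 4, with a median of 6 over all windows.

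Sox3 (ENSMUSG00000045179.9, chromosome X, 60891366 to 60893430, minus strand, mm10, 1 exon) had 17 counts in the control input and 15 in the icKO input. It had 526 and 670 counts in the control pull-downs and 334 and 358 in those of icKO, or 25.3 and 28.0 CPM and then 17.1 and 18.9 CPM of the library totals. With exact Poisson 95% intervals, which cover counting error only, the control input was at 0.805 CPM (0.469 to 1.29) and the icKO input at 0.753 CPM (0.421 to 1.24). Both inputs were thus the nearest to the limit of 1 CPM among the 5 genes. The 2 icKO IPs were below both control IPs.

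Gsx1 (ENSMUSG00000053129.5, chromosome 5, 147188696 to 147190947, plus strand, 2 exons) was counted 8 times in the control input, 199 and 305 times in the control pull-downs, 7 times in the icKO input, and 147 and 127 times in those of icKO. The IP levels were 9.59 CPM (8.30 to 11.0) and 12.7 CPM (11.4 to 14.3) in control and 7.51 CPM (6.35 to 8.83) and 6.70 CPM (5.58 to 7.97) in icKO. The counting intervals of the 2 control IPs did not overlap, so that for this gene replicate spread exceeded counting error. Those of control IP replicate 1 and icKO IP replicate 1 did overlap.

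Sapcd2 (ENSMUSG00000026955.13, chromosome 2, 25372321 to 25378213, plus strand) had 12 and 11 counts in the inputs of control and icKO mice, 460 and 553 in the control pull-downs and 457 and 414 in those of icKO. Its IP levels, 22.2 and 23.1 CPM in control and 23.4 and 21.8 CPM in icKO, had overlapping counting intervals, and the groups overlapped. The input levels were 0.568 CPM (0.293 to 0.992) in control and 0.552 CPM (0.276 to 0.988) in icKO. The window shown above was taken from the RefSeq start and ends at 25372034, upstream of the GENCODE M21 start at 25372321.

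Matn1 (ENSMUSG00000040533.7, chromosome 4, 130944385 to 130955475, plus strand, 8 exons) had the fewest input counts, 7 in control and 6 in icKO, or 0.331 CPM (0.133 to 0.683) and 0.301 CPM (0.111 to 0.656). In the IPs it had 262 and 336 counts in control and 128 and 146 in icKO. These were 12.6 and 14.0 CPM against 6.54 and 7.70 CPM. The counting intervals of both control libraries (from 11.1) lay above those of both icKO libraries (up to 9.05).

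Pnlip (ENSMUSG00000046008.8, chromosome 19, 58652498 to 58681788, plus strand) had 11 and 7 counts in the inputs of control and icKO mice, 239 and 250 in the control pull-downs and 185 and 171 in those of icKO. The IP levels were 11.5 and 10.4 CPM in control and 9.45 and 9.01 CPM in icKO, which did not overlap. The counting intervals of control IP replicate 2 (9.19 to 11.8) and icKO IP replicate 1 (8.14 to 10.9) did, however. The share of all genes whose levels or intervals do not overlap between genotypes was not computed. That limit holds for Sox3, Gsx1 and Matn1 as well. GENCODE M21 starts this gene at 58652498, upstream of the RefSeq start from which the window above was taken, and the sources used here do not give the model that was counted.

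**Figure D1:**
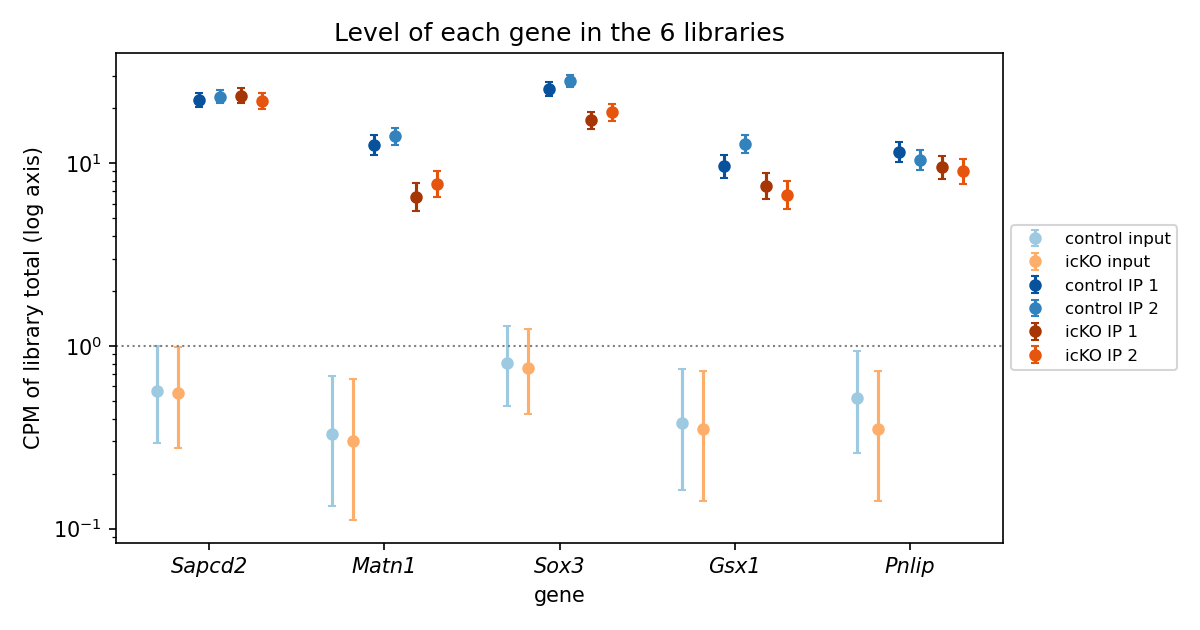
CPM of the library total (vertical, log axis) of each of the 5 genes (horizontal) in the 6 libraries. Points are single libraries and bars exact Poisson 95% intervals, with the dotted line at 1 CPM. All 10 input points lie under the line. The IP points of Matn1, Sox3, Gsx1 and Pnlip are lower in icKO than in control. The bars of Gsx1 and Pnlip overlap between genotypes, and Pnlip was not called between them. The points of Sapcd2 overlap. The share of all genes whose points separate in this way was not computed, so separation does not set these genes apart.

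Against its own input, each gene was 20.2-fold to 40.9-fold higher, with wide intervals set by the input counts. Sapcd2 was 39.9-fold higher in control (exact conditional binomial 95% interval 22.8 to 77.5) and 40.9-fold in icKO (22.8 to 82.3). Matn1 was 40.4-fold higher in control (19.5 to 101) and 23.6-fold in icKO (10.7 to 64.9). The ratios for Sox3 were 33.3 (20.7 to 57.3) and 23.8 (14.4 to 42.8). For Gsx1 they were 29.8 (15.0 to 69.4) and 20.2 (9.69 to 50.8), and for Pnlip 21 (11.6 to 42.4) and 26.3 (12.6 to 65.9). These ranges overlap between genotypes for each gene and between any 2 of the genes, so no order among the 5 could be read at this depth. The precursor markers are set beside them for scale. Pdgfra, a growth factor receptor of precursors, was 40.5-fold (38.2 to 42.9) and 30.7-fold (29.1 to 32.4) above input in control and icKO, and Cspg4 40.2-fold (36.7 to 44.0) and 38.5-fold (35.2 to 42.3).

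**Figure D2:**
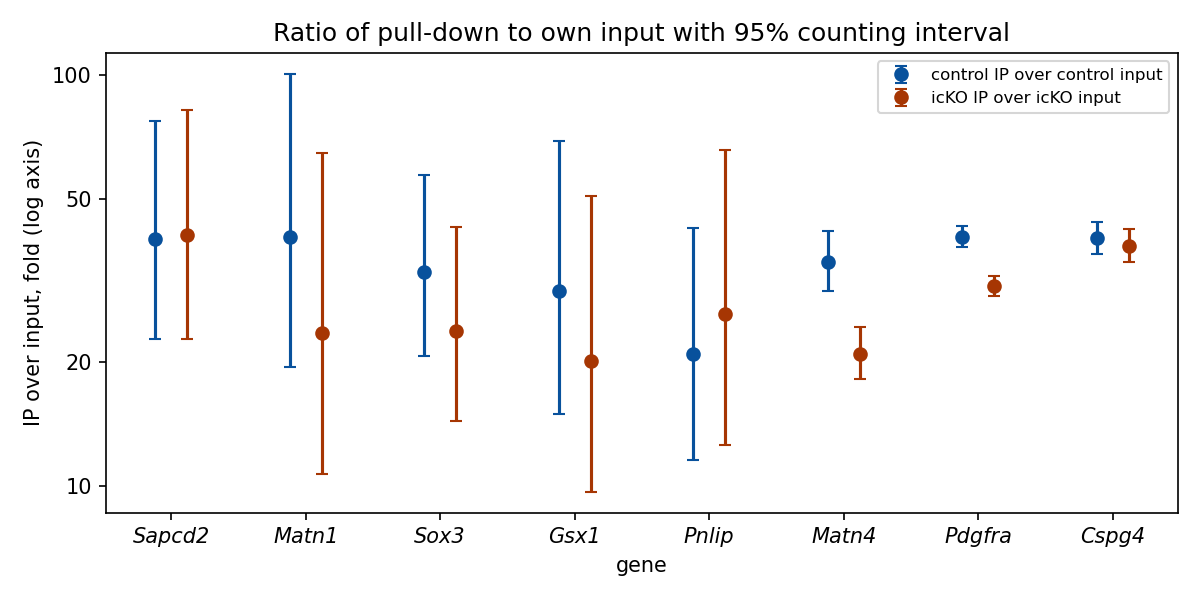
Ratio of the pooled IP count rate to the input count rate (vertical, log axis) for the 5 genes and for Matn4, Pdgfra and Cspg4, by genotype. Bars are exact 95% counting intervals. They run from 10.7 to 101 over both genotypes of Matn1, and only from 29.1 to 42.9 over those of Pdgfra.

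In the fit of all 6 libraries, 34.8% of 15451 genes were called higher in IP and 35.1% lower. The fitted log2 ratios of the 5 genes were 5.39 (Sapcd2), 5.05 (Matn1), 4.90 (Sox3), 4.69 (Gsx1) and 4.58 (Pnlip), values that the choice of the genes fixes. Under 1 CPM in both inputs there were 10231 genes, of which 1293 had enough counts to be fitted, with a median log2 of 1.08, and 23 of them reached the value of Pnlip, the lowest of the 5. Just inside that level stood Mir219a-2 (4.76), Gsx1 and Pnlip, and just outside stood Mir8094 (4.54), 1700007J10Rik (4.52) and Snora75 (4.52). On the side of the input limit, no gene with a log2 ratio as high as that of Pnlip lay close above 1 CPM. The nearest were Neu4, a sialidase gene of precursors (7.62 CPM in its higher input, log2 4.60), Matn4 (9.59 CPM, 4.82) and Cspg4 (23.6 CPM, 5.37).

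**Figure D3:**
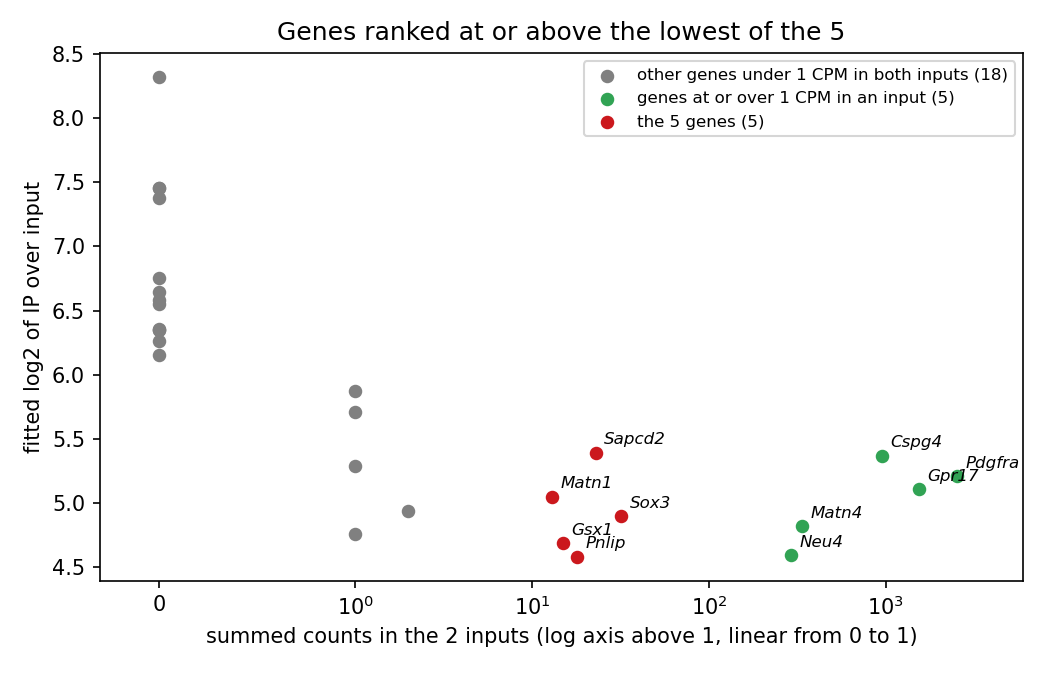
Fitted log2 of IP over input (vertical) against the summed counts of both inputs (horizontal, log axis above 1) for the 28 genes at or above the value of Pnlip. The 5 genes (red) have 13 to 32 input counts, the other 18 rare genes (grey) at most 2, and the 5 genes past the input limit (green) far more.

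Per length, Sox3 was the most frequent of the 5 in control IPs, at 12.3 and 13.6 CPM per kilobase of annotated exon. Sapcd2 (6.33 and 6.60), Matn1 (6.31 and 7.02) and Gsx1 (5.41 and 7.19) followed with overlapping ranges. Pnlip was lowest on this length (5.25 and 4.76). The length spans all annotated exons, 2195 bases for Pnlip, whose longest coding transcript has only 1487. For Sapcd2 these lengths are 3499 and 3121 bases, and for Matn1, Sox3 and Gsx1 they are equal. The place of Pnlip in either genotype therefore rests on the length chosen, and the model that was counted is not known. In icKO IPs the order was Sox3 (8.27 and 9.14), Sapcd2 (6.67 and 6.24), Pnlip (4.31 and 4.11), Gsx1 (4.24 and 3.78) and Matn1 (3.27 and 3.85). There the ranges of Pnlip and Gsx1, and of Gsx1 and Matn1, overlapped. In the inputs all 5 lay between 0.151 and 0.39 CPM per kilobase. The genes are short, with 1773 to 3499 bases of exon against a median of 4455 over the tested genes with a GENCODE M21 symbol.

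No GENCODE M21 gene overlaps any of the 5, and the counted neighbours within 50 kilobases that could be fitted had log2 ratios of IP to input from -2.32 (Laptm5) to 0.21 (Man1b1). Uap1l1, 6639 bases from Sapcd2 on the other strand, had 200 and 211 counts in the inputs and 175 to 323 in the IPs. Laptm5, a microglial gene 8244 bases from Matn1, had 419 and 448 counts in the inputs and 71 to 98 in the IPs. Within 50 kilobases of Pnlip, the paralog Pnliprp1 and the pseudogene 1810018F18Rik had 0 counts in each of the 6 libraries. The antisense gene Gm14662, 223 bases from Sox3, is not analysed here, and neither are the noncoding neighbours of Gsx1.

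Between genotypes, 3 of the 5 genes were lower in icKO IPs than in control IPs and none was called higher, by the quasi-likelihood test of edgeR (p-values Benjamini-Hochberg adjusted across 15069 genes), of which 25.2% were called lower and 22.1% higher. Matn1 fell most. It was at 13.3 ± 1.0 CPM in control and 7.12 ± 0.817 in icKO (SD over n = 2 libraries a group), and its log2 change was -0.82 ± 0.14 (SE), at an adjusted p = 8.04e-06, and 1.71% of tested genes had a lower value. Gsx1 went from 11.2 ± 2.23 to 7.10 ± 0.577 CPM, a log2 change of -0.57 ± 0.15 with adjusted p = 0.00217. Sox3 went from 26.7 ± 1.88 to 18.0 ± 1.28 CPM, a log2 change of -0.49 ± 0.10 with adjusted p = 7.97e-05. Gsx1 rested on control IP replicate 2: without it the log2 change was -0.35 and the gene was no longer called, in a fit with a single control library.

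Sapcd2 and Pnlip did not pass. Sapcd2 averaged 22.6 ± 0.668 CPM over control libraries and 22.6 ± 1.08 CPM over icKO libraries, a log2 change of 0.08 ± 0.09 (SE), at an adjusted p = 0.482 in the same test. Pnlip was at 11.0 ± 0.756 and 9.23 ± 0.310 CPM, a log2 change of -0.16 ± 0.13 with adjusted p = 0.337. The median over the 5 was -0.49, against 0.0033 over all genes tested.

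The size of these changes depended on what the libraries were scaled to. With library totals the median of all genes was -0.08 and 16.0% of genes were called higher and 33.0% lower, and the same 3 genes were called lower. Scaled to the precursor list the median of all genes moved to 0.21, with 42.2% called higher and 10.3% lower. Matn1 (-0.62), Gsx1 (-0.37) and Sox3 (-0.28) were still called lower there, with adjusted p of 2.19e-04, 0.0373 and 0.0128 by edgeR's quasi-likelihood test, while Sapcd2 (0.29, adjusted p = 0.00833) was called higher and Pnlip was at 0.04. With the mature oligodendrocyte list as the scale, the median of all genes was 0.69, with 84.1% called higher and 0.776% lower. Under that scaling 0 of the 5 were called lower in edgeR's test, and Sapcd2 (0.77) and Pnlip (0.52) were called higher. Sox3 and Gsx1 then stood at 0.20 and 0.11 and Matn1 at -0.14. A scaling shifts the genes and the median of all genes alike, so their distance from that median is nearly the same in all 4 scalings.

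**Figure D4:**
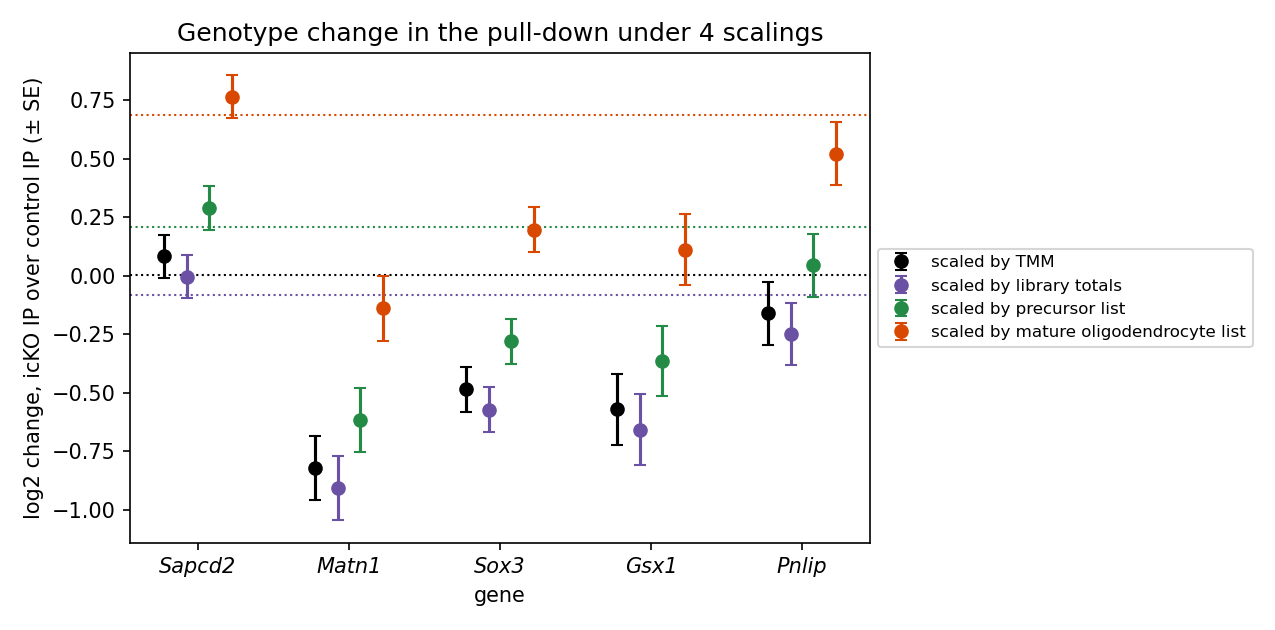
The log2 change between icKO and control IPs (vertical, ± SE) of the 5 genes under 4 scalings of the libraries. Dotted lines show the median of all tested genes under the scaling of the same colour. A scaling moves the genes and their median together, so Matn1, Sox3, Gsx1 and Pnlip keep their place below the line by construction.

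Ratios of counts within a library do not depend on the scaling. For each Sapcd2 count there were 0.570 and 0.608 Matn1 counts in the control pull-downs and 0.280 and 0.353 in those of icKO. The counting intervals of the former (0.488 to 0.697) and the latter (0.228 to 0.427) did not overlap. Sox3 counts per Sapcd2 count were 1.14 and 1.21 in control and 0.731 and 0.865 in icKO. Those of Gsx1 were 0.433 and 0.552 in control and 0.322 and 0.307 in icKO, and those of Pnlip 0.520 and 0.452 in control and 0.405 and 0.413 in icKO. The ratios share Sapcd2 as their denominator, the gene with the highest log2 change of the 5, so a lower ratio in icKO follows in part from that choice. Their counting intervals overlapped between genotypes for Gsx1 and Pnlip and not for Matn1 and Sox3. Per 100 counts of Pdgfra, Sapcd2 had 0.978 and 1.02 counts in control and 1.12 and 1.05 in icKO, and Matn1 0.557 and 0.620 against 0.313 and 0.369. On the same scale Sox3 had 1.12 and 1.24 counts in control and 0.816 and 0.904 in icKO, Gsx1 0.423 and 0.563 against 0.359 and 0.321, and Pnlip 0.508 and 0.462 against 0.452 and 0.432. Counting intervals per Pdgfra count did not overlap between genotypes for Matn1 and Sox3, and did for Sapcd2, Gsx1 and Pnlip. In both sets of ratios the intervals leave out replicate spread. The share of all genes without such overlap was not computed, so the lack of overlap does not set Matn1 and Sox3 apart from other genes.

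Cell type markers differed between the same libraries, in which 25.2% of all genes were called lower and 22.1% higher. Of 25 precursor genes other than Sapcd2, 19 were lower and 1 higher in icKO IPs (median log2 -0.25). The 1 higher was Cspg4 (0.08, adjusted p = 0.00411 by edgeR's quasi-likelihood test), and none was called higher with library totals. Pdgfra was at -0.03 (adjusted p = 0.226 in that test). All 18 pericyte and smooth muscle genes were lower, with a median of -0.92 and a summed level of 2421 and 2451 CPM in control against 1247 and 1259 CPM in icKO IPs. Of 25 mature oligodendrocyte genes 24 were lower and 1 higher, with a median of -0.68 and sums of 30174 and 30375 CPM against 17804 and 17718 CPM. Of 28 cell cycle genes 14 were higher (9 in DESeq2) and 1 lower, with a median of 0.36. Scaled to the mature oligodendrocyte list, which calls 84.1% of all genes higher and 0.776% lower, 22 precursor genes were higher and 0 lower, and 10 pericyte genes were lower and 1 higher. None of the genes of these 4 lists was at 0 in all libraries. Their part in the changes of Matn1, Sox3 and Gsx1 was not tested.

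In the inputs no genotype difference could be detected at this depth. The ratio of icKO to control input was 0.972 for Sapcd2 (exact conditional binomial 95% interval 0.389 to 2.41), 0.936 for Sox3 (0.435 to 1.99), 0.928 for Gsx1 (0.287 to 2.93), 0.909 for Matn1 (0.252 to 3.16) and 0.675 for Pnlip (0.222 to 1.91). There was 1 input per genotype, so these have no replicate check. Whether the genotype change in IP differed from that in input was tested over 4 groups, the lone inputs being taken to vary as the IP pairs do, and 23.6% of 15936 genes were called in either direction. Of the 5 genes 0 were called by edgeR's quasi-likelihood test. In that test 0 of them had an unadjusted p under 0.05, beside 5446 of the 15936 genes. DESeq2 called 0 of the 2 that received an adjusted p, beside 7.12% of all genes called lower and 4.35% higher. The differences in log2 change were -0.70 ± 0.83 (SE) for Matn1, -0.48 ± 0.81 for Gsx1, -0.41 ± 0.53 for Sox3, 0.11 ± 0.60 for Sapcd2 and 0.38 ± 0.69 for Pnlip. Errors of this size include both no difference and the change seen in the IP.

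Both other SoxB1 genes had far more input counts than Sox3. Sox2, the SoxB1 factor kept by neural stem cells and precursors, had 971 and 899 counts in the inputs of control and icKO mice, 2255 and 2653 in the control pull-downs and 1805 and 1734 in those of icKO. Sox1, the remaining SoxB1 gene, had 670 and 664 input counts and only 213 and 254 in control and 239 and 248 in icKO IPs. Its log2 change between genotypes was 0.36 ± 0.12 (SE), at an adjusted p = 0.0171, opposite in sign to Sox3, but the adjusted p was 0.0681 with library totals, 0.0885 in DESeq2, 0.105 without icKO IP replicate 2 and 0.0652 when control IP replicate 1 was left out. Sox2 changed by -0.17 ± 0.05 (adjusted p = 0.00218) but was at 0.03 when scaled to the precursor list and 0.51 relative to the mature oligodendrocyte list. Of the 15 other Sox genes tested, 6 fell and 2 rose in icKO IPs, with a median of -0.17, beside 25.2% and 22.1% of all genes. When scaled to the precursor list 4 fell and 7 rose (10.3% and 42.2% of all genes), and relative to the mature oligodendrocyte list 0 fell and 12 rose (0.776% and 84.1%). The rises numbered 0 with library totals, in DESeq2, and on leaving out either control IP replicate 1 or icKO IP replicate 2. Among called genes the largest changes were those of Sox21 (-0.53) and Sox4 (-0.53), then Sox10 (-0.42), the factor of the whole oligodendrocyte lineage, and Sox8 (-0.37), all of which were above 0 (0.15 to 0.31) relative to the mature oligodendrocyte list. Close paralogs can share reads, and the sources used here do not give how such reads were counted.

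Gsx2, the paralog of Gsx1, did not pass against input (log2 0.18, adjusted p = 0.717 in edgeR's test). It had 14 and 12 counts in the inputs of control and icKO mice and 10 to 18 in the IPs, a log2 change between genotypes of -0.06 ± 0.52 (SE, adjusted p = 0.935). Of 20 other patterning factors tested between genotypes, 5 fell and 7 rose when scaled to the precursor list, beside 10.3% and 42.2% of all genes. Relative to the mature oligodendrocyte list 0 fell and 16 rose, beside 0.776% and 84.1%. With neither list as the scale 7 fell and 5 rose, with a median of 0.16, beside 25.2% and 22.1% of all genes. The rises numbered 1 without icKO IP replicate 2, where the median was -0.07, 2 without control IP replicate 1, 3 without control IP replicate 2 (median -0.03), and 1 in DESeq2. Among called genes the largest changes were rises of Otx2 (1.23), Lhx8 (1.19) and the interneuron factor Dlx1 (0.99), and a fall of Nkx6-2 (-0.75, but -0.07 and not called relative to the mature oligodendrocyte list), an oligodendrocyte homeodomain factor, by edgeR's quasi-likelihood test. Otx2 and Lhx8 rested on 8 to 31 counts per IP. Otx2 lost its call without any 1 of the 4 libraries (adjusted p of 0.0827 to 0.237) and with library totals (0.0551). Lhx8 lost it without control IP replicate 1 (adjusted p = 0.251), icKO IP replicate 1 (0.0849) or icKO IP replicate 2 (0.079), and in DESeq2 (0.0909). Against input, 6 of 21 such factors were higher in IP and 13 lower, beside 34.8% and 35.1% of all genes. The ventral forebrain factor Dlx2, with 172 and 202 counts in the inputs, had 39 to 54 in the IPs.

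For Sapcd2, the paralog Sapcd1 was rarer still, with 3 and 2 counts in the inputs of control and icKO mice, 21 and 25 in the control pull-downs, and 8 and 7 in those of icKO. Its log2 change between genotypes was -1.30 ± 0.53 (SE), at an adjusted p = 0.041, on few counts. That call was lost without any 1 of the 4 IP libraries (adjusted p of 0.143 to 0.18), without a filter (0.0634) and when scaled to the precursor list (0.081). Of the 18 other spindle orientation genes 8 fell and 1 rose in icKO IPs (median -0.19), beside 25.2% and 22.1% of all genes. Relative to the precursor list 3 fell and 8 rose (median 0.02), beside 10.3% and 42.2%, and relative to the mature oligodendrocyte list 0 fell and 14 rose, beside 0.776% and 84.1%. The inhibitory G protein subunits Gnai2 (-0.71) and Gnai1 (-0.42) fell, and so did Insc (-0.39), the inscuteable homologue, although relative to the mature oligodendrocyte list they stood at -0.03, 0.26 and 0.29, and Insc was not called relative to the precursor list. The member that rose was afadin (0.37), under its older symbol Mllt4.

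Among the matrilins, Matn4 was frequent in the pull-down, with 4837 and 5851 counts in control and 3959 and 3806 in icKO IPs against 144 and 191 in the inputs of control and icKO mice. It fell by 0.16 on the log2 scale (SE 0.03, adjusted p = 2.17e-04) but was at 0.05 when scaled to the precursor list and 0.52 relative to the mature oligodendrocyte list. Matn2 had 583 and 524 input counts and 333 to 392 in the IPs, with a log2 change of 0.15 ± 0.11 (SE, adjusted p = 0.261). Matn3 had at most 6 counts in any library. Of 14 other cartilage matrix genes in the file 9 were tested, and 8 were higher and 1 lower in IP than in input, beside 34.8% and 35.1% of all genes. Between genotypes 3 rose and 1 fell, with a median of 0.17, beside 22.1% and 25.2% of all genes, and 8 rose and 0 fell relative to the mature oligodendrocyte list, beside 84.1% and 0.776%. The called ones were Col11a1 (0.72), Col9a3 (0.26), Col11a2 (0.25) and Acan (-0.45, but 0.23 relative to the mature oligodendrocyte list), the proteoglycan aggrecan. Counts of 2 of them against input were those of Acan (148 and 164 input counts, 835 to 1608 in IPs) and Col11a2 (336 and 318, then 2766 to 3014). The cartilage genes Comp, Ucma, Chad and Epyc had at most 9 counts in any library.

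Most of the enzymes that accompany Pnlip in the pancreas had few counts or none. Of 31 other exocrine pancreas genes in the file, 16 had 0 counts in all 6 libraries and 21 had at most 3 in any library. The latter include Cpa1, Prss1, Prss2, Amy2a5 and Amy2b at 0, and the lipase cofactor colipase (Clps) with 2 counts in the icKO input alone. Counts of 0 leave room for a low level: the exact Poisson 95% upper limit for Pnliprp1, at 0 in each library, reached 0.194 CPM in icKO IP replicate 2. The summed level of all 31 was 2.74 and 3.61 CPM in the inputs of control and icKO mice and 4.80 to 6.44 CPM in the IPs. Rbpjl, an acinar transcription factor gene, had 8 and 13 counts in the inputs and 29 to 57 in the IPs. In the lipase family, Pnliprp2 had at most 5 counts in any library. The phospholipase gene Pla1a had 29 and 27 counts in the inputs, 316 and 337 in control IPs and 138 and 181 in icKO IPs, and fell by 0.73 on the log2 scale (SE 0.14, adjusted p = 3.84e-05 by edgeR's quasi-likelihood test), but was at -0.05 and not called relative to the mature oligodendrocyte list.

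**Figure D5:**
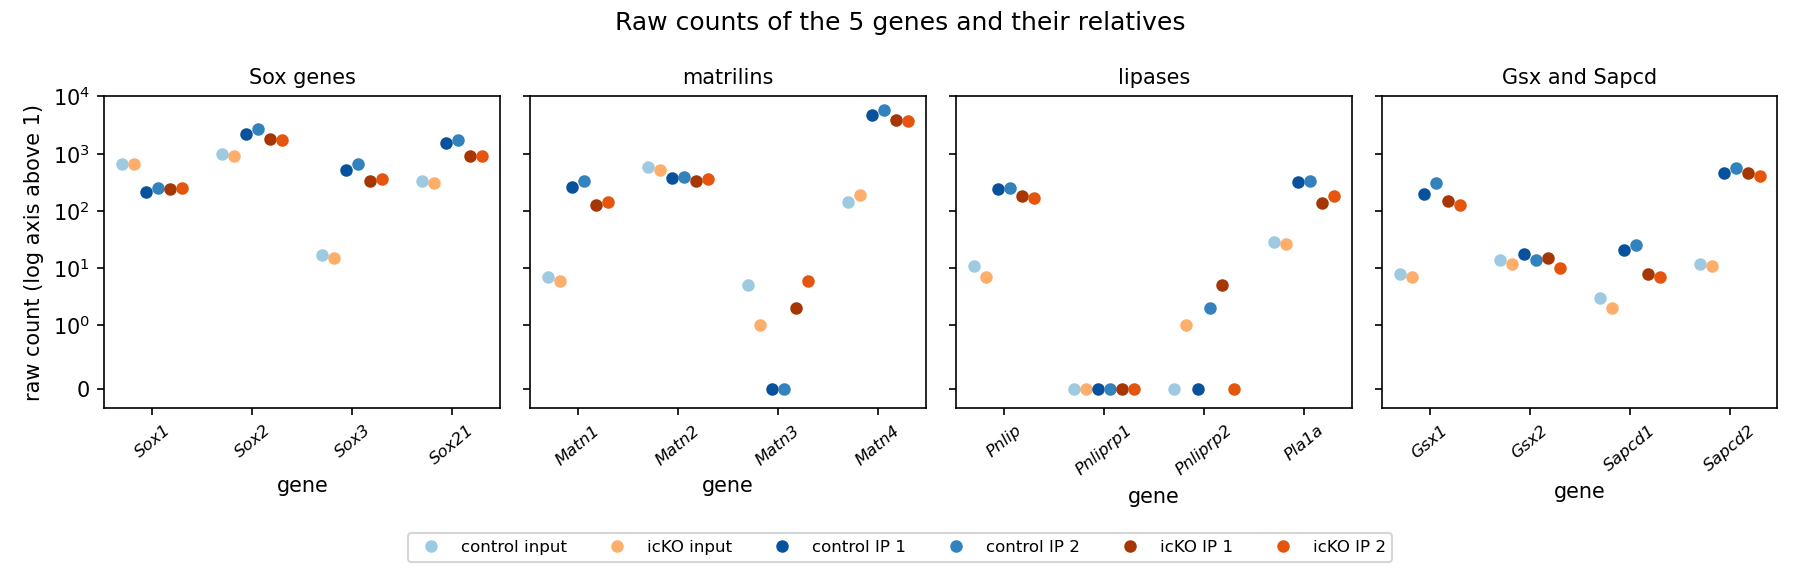
Raw counts (vertical, log axis above 1) of the 5 genes and of relatives in the 6 libraries, by family. Sox1 and Matn2 have fewer counts in the IPs than in the inputs, Gsx2 has 10 to 18 counts throughout, and Pnliprp1 is at 0.

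Likeness of pattern was measured as the Euclidean distance between log2 CPM profiles over the 6 libraries, each centred on its own mean, among 15450 other genes. The libraries share groups and the inputs of the 5 genes hold few counts, so the distances are a description. The profiles also include the ratio of IP to input, by which the 5 genes were chosen. Nearness to other strongly enriched genes thus follows in part from the choice. Nearest to Sapcd2 were Cspg4 (0.252), Pdgfra (0.267) and Gpr17 (0.384), a receptor of committed precursors. Sox3 and Matn1 were nearest to each other (0.352). Next to Matn1 came 5730559C18Rik (0.528) and Gsx1 (0.544), and next to Sox3 came Neu4 (0.395) and 5730559C18Rik (0.448). The latter was also the nearest to Gsx1 (0.287), followed by Bfsp2 (0.510) and Sox3 (0.525). Pnlip was nearest to Neu4 (0.342), Kif19a (0.371) and Bfsp2 (0.372). Among the 5, Sapcd2 was the farthest from Gsx1 (1.18) and Matn1 (1.12). These distances include the ratios to input, in which no order among the 5 could be read.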

How the data were processed

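Raw read counts per gene symbol were measured in 6 libraries and deposited by the authors without normalization. Per the submitters' processing notes, the tools were Trimmomatic 0.39 (trimming) and STAR 2.7.10b (alignment), with mm10 as the genome. Not given in the sources used here are the counter, its annotation, its strand setting and duplicate handling. Counting intervals treat reads as independent. Of 24421 rows, 10 had no value in the inputs and were left out. Groups and replicate numbers came from sample titles, where icKO IP replicate 1 reads cKO. Members and gene lists were chosen with earlier results of these data known.

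Counts were tested with edgeR 4.0.16 in R 4.3.3 (filterByExpr, TMM, glmQLFTest, two-sided, Benjamini-Hochberg over all genes tested, threshold 0.05). The IP genotype fit used the 4 IP libraries and had 2 residual degrees of freedom. An SE given with an edgeR log2 change was derived from the test. It is the absolute log2 change divided by the square root of the F statistic. For Matn1 between genotypes it was 0.137, where DESeq2 gave an SE of 0.196. The titles call the IPs biological replicates but do not say that their pools held different mice, so p-values measure only how these samples vary, which may be technical. Ratios carry exact conditional binomial and levels exact Poisson 95% intervals (scipy 1.17.1). Annotation was GENCODE M21. Log2 profiles used a prior count of 2. The test was checked on simulated data.

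Named were the 5 genes, their nearest paralogs and the 3 genes most alike to each. Per list, up to 4 called genes with the largest change were named. So were the genes next to the rule's limits, and Pdgfra, Cspg4 and Ank3. Neighbours and list genes with few counts were named after their values were seen. Alternatives were library totals, RLE factors, DESeq2 1.42.0, scaling to 2 lists, other filters, all 6 libraries, each IP library left out and the replicate number as a block.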

Additional observations from a re-analysis of the deposited data

How the results depend on the processing

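Of the recomputed values, 185 were taken as unchanged. For log2 changes this means the same direction and, where tested, the same call, and for ratios a value within the counting interval. Gene counts among the 185 could still shift. With library totals 4980 genes were called lower in icKO IPs (3793 in the main fit) and 2408 higher (3326), and DESeq2 called 2787 lower. Outside the 185, 5 gene counts moved, 5 log2 changes reversed in sign, 2 grew stronger and 2 weaker. The 185 include all alternatives of the ratios to input. They also include those of the test of whether the genotype change in IP differed from that in input. DESeq2 gave only 2 of the 5 genes an adjusted p in that test, so for the others only the direction was kept. Scaling mattered most. Genes called lower in icKO IPs numbered 3793, but 1559 relative to the precursor list and 117 relative to the mature oligodendrocyte list. Genes called higher numbered 3326, then 6356 and 12671, and the last scaling called 12788 in all. Sapcd2 was at -0.0036 (log2) with library totals, 0.29 with the precursor list and 0.77 with the mature oligodendrocyte list as the scale, and it passed under both lists. Pnlip was at 0.04 and 0.52 under these 2, and passed under the last. The mature oligodendrocyte list turned Sox3 to 0.20 and Gsx1 to 0.11, neither called, and ended the call of Matn1 at -0.14. Leaving out 1 IP library at a time gave -0.76 to -0.35 for Gsx1, which lost its call without control IP replicate 2. Counting depth limits everything drawn from the inputs, with 6 to 17 counts per gene.

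With the replicate block 3401 genes were higher and 3876 lower and the same 3 genes were called. The correlation of same-numbered deviations was -0.00311, the numbers carry no stated pairing, and the block changed no call of the 5 genes.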

Other observations

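The other 18 rare genes with a ratio to input as high as that of Pnlip had at most 2 counts in both inputs together, 13 of them none, and at most 61 counts in any IP, where the 5 genes had at least 127. Those 18 include 8 microRNA loci. Among the protein-coding ones, the serine protease gene Tmprss3 had 0 counts in both inputs, 30 and 21 in the control pull-downs and 15 and 16 in those of icKO. Fbp1, a gluconeogenic enzyme gene, had 0 in both inputs, 16 and 28 in control IPs and 19 and 23 in icKO IPs. The leukotriene receptor gene Cysltr2 had 1 and 0 counts in the inputs, 31 and 39 in control IPs and 10 and 16 in icKO IPs. These genes were chosen after their values were seen.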
